A study of Drosophila melanogaster with 6 samples.

Results

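Of 6 libraries of polyadenylated RNA from whole larval lymph glands of Drosophila melanogaster, 2 held the highest levels of spok, a gene of ecdysone synthesis, and were set beside the other 4. The lymph gland makes blood cells in the larva, whereas spok is normally a gene of the prothoracic gland, a part of the ring gland that lies in front of it along the dorsal vessel. The members of the spok-high pair were set A replicate 1, at 967 TPM (the relative abundance of a transcript, corrected for its length), and set B replicate 2, at 990.03 TPM. The next library, set B replicate 3, was at 601 TPM, followed by set B replicate 1 at 501 TPM, set A replicate 2 at 358 TPM and set A replicate 3 at 299 TPM. The split therefore cuts between 601 and 967 TPM, was made from these values and carries no label of the study. It is described here without any test, and spok is left out of every count made from it.

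All 6 libraries came from third-instar larvae with the genotype label wild-type and the background BL-30140 crossed to w1118, raised at 25 °C on semi-defined medium, with no treatment. Sets A and B are the libraries of 2 experimenters, with 3 each, so the spok-high pair takes 1 library from each set. The labels give neither the number nor the sex of the larvae behind a library. Total expected counts ranged from 18689689 in set B replicate 2 to 26003822 in set A replicate 1, so the pair holds both the shallowest and the deepest library. Between 7734 and 8236 genes reached 1 TPM in a library. Mitochondrial genes took 1.35% of the counts in set A replicate 1, the lowest share, and 3.48% in set B replicate 2, against 2.08% to 3.85% in the other 4. Values below are TPM in the order set A replicates 1, 2 and 3, then set B replicates 1, 2 and 3, unless libraries are named.

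Ecdysone, the steroid that times larval molts and metamorphosis, is made from dietary sterol in the prothoracic gland by a chain of enzymes known as the Halloween genes. The corpus allatum, another part of the ring gland, makes juvenile hormone, and the corpora cardiaca release adipokinetic hormone. The lymph gland itself holds progenitors (prohemocytes), a signalling niche, phagocytic plasmatocytes and crystal cells, whose prophenoloxidases serve melanization. The ring gland, tracheae and heart tube lie close to it in the larva.

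Among 8490 genes that passed the expression filter of edgeR, 2062 (24.3%) were higher in both spok-high libraries than in all 4 others. Another 1729 (20.4%) were lower in both, and all other genes, the largest group, overlapped. Most genes thus overlapped, so a count of overlapping list members is no result by itself. The shares of 24.3% and 20.4% are the background for every count below of list members that were higher or lower. They come from the same split that spok defined. A margin of at least 2-fold, taken between the nearest libraries of the 2 sides on TPM + 1, was met by 80 genes that were higher (0.942%) and 10 that were lower (0.118%). The 4 genes tal-1A, tal-2A, tal-3A and tal-AA carry the same values, so they are 1 measurement among the 80. Summed over the 80 genes, TPM was 9252 and 7281 in the spok-high libraries and 1140 to 2529 in the others.

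The other enzymes of ecdysone synthesis followed spok. All 6 that passed the filter (nvd, sro, phtm, dib, sad and GstE14) were higher in both libraries of the pair, against the background of 24.3%. Each of these genes alone would have picked the same pair. The median log2 margin between the nearest libraries was 0.61 for these genes, against -0.18 over all genes, where a negative value means overlap. The seventh of the list, Cyp6t3, was at or below 0.04 TPM in every library. The paralog spo was listed at 0 in all 6 libraries, and the posterior SD that RSEM gave for the spok count was 0.

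phtm (FBgn0004959, also called phm, chromosome X at 18685766 to 18688433 of BDGP6.54) encodes a cytochrome P450 that hydroxylates the sterol side chain. Its levels were 921, 339.74, 348, 544, 815 and 534 TPM. The lower library of the pair was 1.5-fold above the highest of the other 4. sad, the mitochondrial P450 of a late hydroxylation, was at 795, 258, 214, 354, 752 and 421 TPM, a margin of 1.79-fold. Both enzymes, with spok, were the most abundant of the chain, and for neither did the groups overlap.

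dib, another mitochondrial P450 of the chain, had the widest margin of the synthesis genes, at 2.21-fold. It was at 84.8, 16.4, 9.82, 19.7, 53.9 and 23.8 TPM, so its highest library was 8.64-fold above its lowest. The same ratio was 3.31 for spok, 3.71 for sad, 3.41 for nvd, 3.35 for GstE14, 2.71 for phtm and 2.46 for sro. The enzymes therefore did not move by a common factor. dib, sad and sro overlap an exon of a gene on the opposite strand. Because the sources do not say whether reads were counted by strand, such counts may include reads of the partner gene, here and for every gene below named with such an overlap.

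nvd, the oxygenase of the first step, was at 113, 33.2, 44.9, 58.3, 93.7 and 76.3 TPM and had the narrowest margin, 1.23-fold over set B replicate 3. sro, a short-chain dehydrogenase of the so-called black box steps, was at 171, 74.8, 69.7, 105, 164 and 117 TPM. GstE14, the glutathione transferase also called noppera-bo, was at 113, 42.2, 36.4, 54.1, 122 and 72.4 TPM. Below the pair the libraries also kept an order. Set B replicate 3 was the third highest for 5 of the 6 genes and set A replicate 3 the lowest for 4 of 6, as for spok. The 4 libraries outside the pair were thus not alike.

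**Figure D1:**
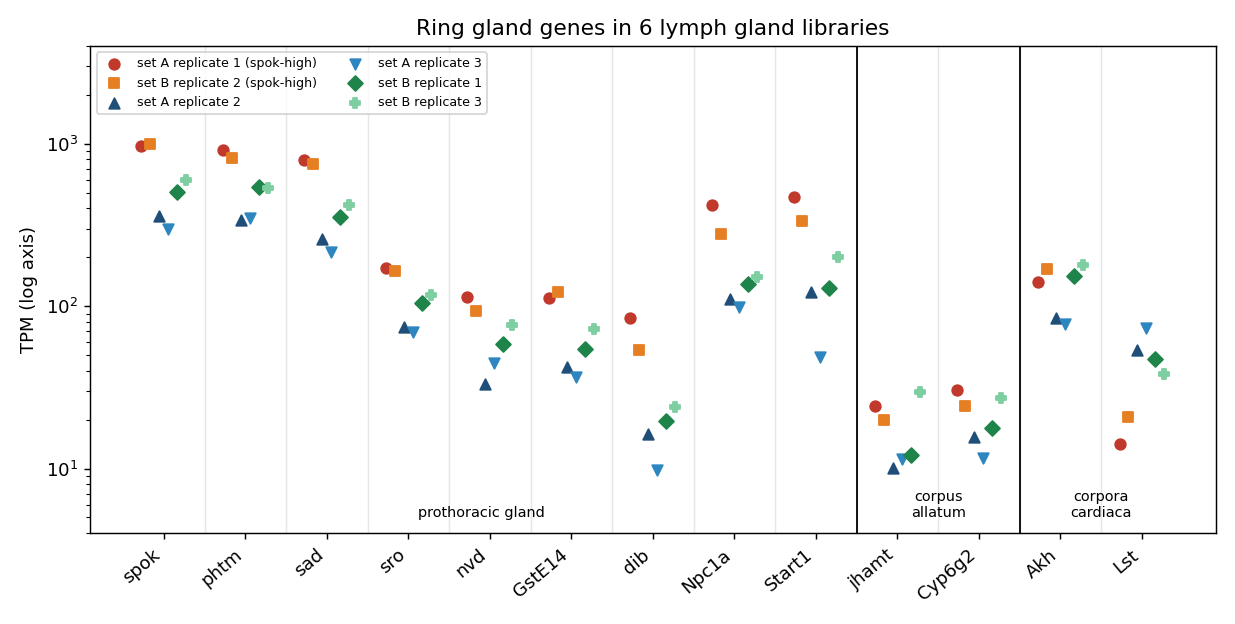
TPM (log axis) of 13 ring gland genes in each of the 6 libraries, grouped by the part of the ring gland they mark, with 1 point per library and no averaging. For the prothoracic gland genes the red and orange points of the spok-high libraries lie above the other 4, from 1.23-fold for nvd to 2.21-fold for dib, while jhamt, Cyp6g2 and Akh overlap and Lst is lowest in the pair.

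Genes that handle sterols in the prothoracic gland were partly separated as well. Of 8 tested members, 5 were higher in both libraries and 0 lower, against backgrounds of 24.3% and 20.4%. Npc1a, which moves sterol out of late endosomes, was at 421, 110.15, 98.2, 137, 278 and 150.5 TPM, a margin of 1.84-fold. Start1, a lipid-transfer protein with a START domain, was at 471, 123, 48.9, 129.6, 335 and 199.98 TPM, a margin of 1.67-fold. Atet, an ABC transporter that loads ecdysone into vesicles, was higher by 1.41-fold, the sterol-binding gene Npc2a by 1.22-fold and the ferredoxin gene Fdx2 by 1.07-fold. The electron carriers dare and Fdx1 and the nuclear receptor gene Hr96 overlapped, at 14.0 to 16.7, 11.2 to 13.8 and 16.2 to 19.7 TPM. Start1, dare and Fdx1 overlap an exon on the opposite strand. The fly gene cameo of this list had no matching ID and was not analysed here.

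Of 12 tested regulators of the prothoracic gland, 7 were higher in both libraries and 1 was lower, against backgrounds of 24.3% and 20.4%. vvl, a POU-domain transcription factor needed for Halloween gene expression, was at 27.8, 9.42, 7.44, 16.6, 25.7 and 16.1 TPM, a margin of 1.52-fold. tor, the receptor of the prothoracicotropic hormone PTTH, was at 4.28, 1.17, 1.38, 2.08, 2.90 and 1.98 TPM, a margin of 1.27-fold. The zinc finger genes ouib and mld, which act on spok and nvd, were separated by only 1.02-fold each, with ouib at 16.2 and 19.3 TPM in the pair against 7.54 to 15.9 TPM. kni and Hr4 lay above the others at low level, between 0.31 and 1.72 TPM in the pair. The nuclear receptor gene ftz-f1 went the other way, at 6.38 and 6.85 TPM in the pair against 8.60 to 13.4 TPM. The insulin receptor gene InR, Smox, babo and Egfr overlapped. Octbeta3R, a receptor for octopamine, counted among the 7 with at most 0.17 TPM in any library. mld and Hr4 overlap an exon on the opposite strand.

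Genes of the other parts of the ring gland were less clearly ordered, and set B replicate 3 decided much of it. In the corpus allatum, jhamt, the methyltransferase that completes juvenile hormone, was highest in set B replicate 3, at 29.7 TPM. It stood at 24.4 and 19.9 TPM in the spok-high libraries and at 10.1 to 12.1 TPM in the remaining 3. Cyp6g2, a P450 of the corpus allatum, was at 30.4, 15.6, 11.7, 17.7, 24.3 and 27.4 TPM, and its groups overlapped too. Of 10 genes on the corpus allatum list, 3 were higher in both libraries, near the background of 24.3%. Without set B replicate 3 the count was 6 of 10, jhamt and Cyp6g2 among them, with 26.6% of all genes then higher. The 3 genes separated in all 6 libraries were Jheh1, a juvenile hormone epoxide hydrolase (1.25-fold), the prenyl synthase gene qm (1.13-fold) and the mevalonate kinase gene Mvk (1.05-fold). For Mvk the posterior SD reached 56.4% of the count, so its reads could not be assigned well. Cyp6g2 and these 3 genes overlap an exon on the opposite strand.

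Akh, the adipokinetic hormone of the corpora cardiaca, was at 142, 84.7, 77.9, 152, 169 and 180.36 TPM, with set B replicate 3 again the highest. Lst, which encodes the peptide limostatin, was lower in both spok-high libraries, at 14.2 and 20.7 TPM against 38.3 to 73.0 TPM, a margin of 1.81-fold. The convertase gene amon overlapped, at 0.27 to 1.61 TPM. The transcription factor gene gl had 4.12 TPM in set B replicate 2 and at most 0.11 TPM elsewhere. The label ring-gland-high thus fits the 6 tested enzymes of ecdysone synthesis, holds for some of the sterol genes and regulators of the prothoracic gland, and does not hold for Akh and Lst. For jhamt and Cyp6g2 it depended on set B replicate 3.

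A list of genes tied to the ecdysone response was examined next. Besides induced genes it holds receptor genes, the importer gene Oatp74D and the hydroxylase gene shd. Of 19 tested, 13 were higher in both spok-high libraries and 0 were lower, against backgrounds of 24.3% and 20.4%. Most margins were small, with a median of 0.13 on the log2 scale against -0.18 over all genes. Among the 13, MsrA had a margin of only 1.01-fold, and shd was at most 1.1 TPM in any library. The receptor gene EcR was at 71.7, 48.3, 53.9, 49.98, 66.0 and 41.4 TPM (1.22-fold), and Oatp74D, the importer that lets ecdysone into cells, at 211, 132, 151, 162, 205 and 158 TPM (1.27-fold). The early genes Eip75B and Eip74EF had margins of 1.14 and 1.07-fold. br, the Broad transcription factor, was at 229, 88.1, 99.9, 123, 174 and 92.4 TPM (1.41-fold) and overlaps an exon on the opposite strand.

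Of the 19 tested genes of this list, 3 passed a margin of 2-fold, against 0.942% of all genes. ImpE3, an ecdysone-inducible gene of imaginal discs, was at 11.6 and 6.22 TPM in the pair and at 0.48 to 1.52 TPM elsewhere, a margin of 2.87-fold. Eip78C, a nuclear receptor, was at 9.0 and 4.49 TPM against 0.63 to 1.34 TPM (2.35-fold). ImpL2, a secreted binder of insulin-like peptides, was at 174, 44.1, 18.2, 56.1, 145 and 71.98 TPM (2.01-fold). Eip93F was at 4.56 and 2.03 TPM against 0.16 to 1.05 TPM (1.48-fold). The partner receptor gene usp overlapped, at 24.3 to 31.2 TPM, and so did Hr39 and Hr3. Where in the dissected tissue these genes were expressed was not measured.

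Tracheal genes were separated further than the ecdysone enzymes. All 6 tested members of the list were higher in both spok-high libraries, and 4 passed 2-fold, against 0.942% of all genes. Their median log2 margin was 1.23. serp and verm, the chitin deacetylases of the tracheal lumen, had margins of 3.58 and 3.08-fold. serp was at 8.73, 1.18, 0.68, 1.05, 15.5 and 1.72 TPM, and verm at 11.1, 1.58, 0.55, 1.72, 26.4 and 2.91 TPM. Gasp, a chitin-binding protein, was at 10.7, 3.14, 1.27, 1.90, 19.98 and 3.88 TPM (2.41-fold). btl, the FGF receptor of tracheal cells, was at 4.39, 1.06, 0.73, 1.28, 4.23 and 0.90 TPM (2.29-fold).

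For serp, verm, Gasp and the chitin synthase gene kkv the higher library of the pair was set B replicate 2. btl (4.39 against 4.23 TPM) and trh were slightly higher in set A replicate 1. Among the synthesis genes, set A replicate 1 led for phtm, sad, dib, nvd and sro, and set B replicate 2 for GstE14 and spok. Neither list was thus led by a single library. Summed over the list, tracheal genes reached 37.2 and 73.1 TPM in the pair and 3.37 to 10.1 TPM elsewhere. The master regulator trh was barely detected, at 1.01 and 0.94 TPM in the pair and 0.03 to 0.47 TPM elsewhere. The part of tracheal RNA in the other differences was not tested. Of 9 tested genes of a chitin matrix list written after values had been seen, 7 were higher in both libraries, against the background of 24.3%. They included obst-A, at 6.10 and 11.98 TPM against 1.12 to 2.67 TPM, and pio, at 2.0 and 10.6 TPM against 0.08 to 0.69 TPM.

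**Figure D2:**
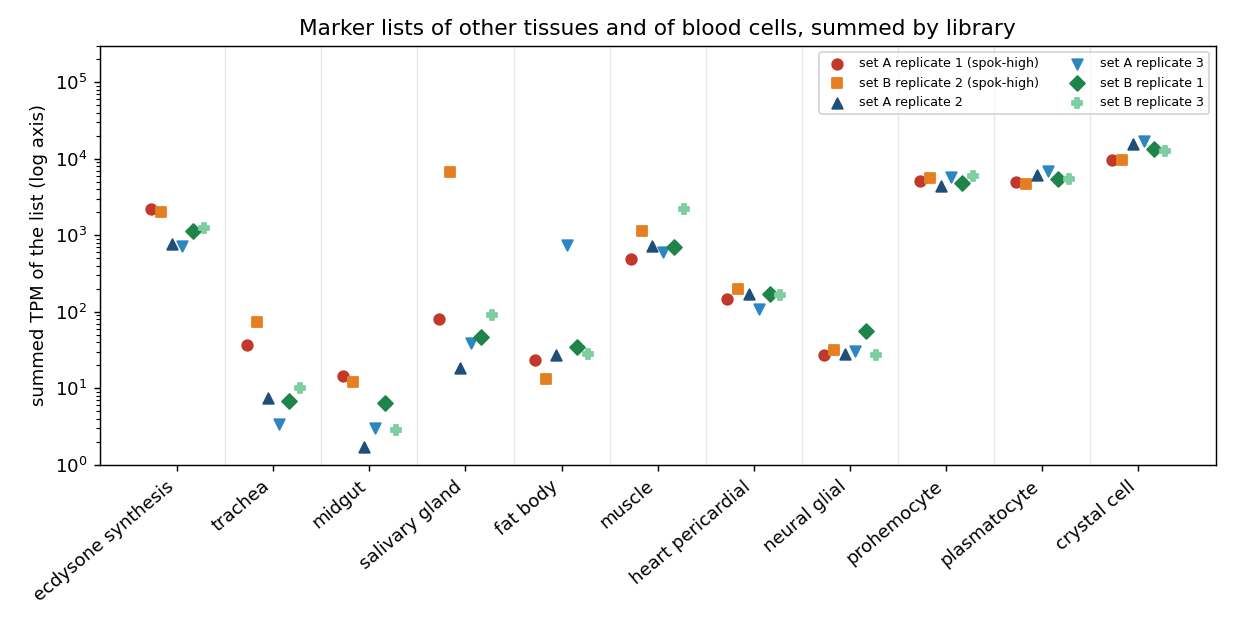
Summed TPM (log axis) of 11 marker lists in each library, with 1 point per library. The red and orange spok-high libraries are highest together for ecdysone synthesis, trachea and midgut and lowest together for plasmatocyte and crystal cell lists, whereas the salivary gland sum is highest in set B replicate 2 alone (6665 TPM) and the fat body, muscle and neural sums are highest in libraries outside the pair.

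Among markers of other tissues, the fat body list was the one with most members lower in the pair. The salivary gland list summed to 6665 TPM in set B replicate 2 and to 79.6 TPM in set A replicate 1, within the 18.3 to 89.9 TPM of the other 4. Of its 8 tested genes, 1 (Sgs8) was higher in both, whereas without set A replicate 1 all 8 were, with 33.1% of all genes then higher, and without set B replicate 3 the count was 4, with 26.6%. The fat body list was highest in set A replicate 3, at 742 TPM, with 23.2 and 13.4 TPM in the pair and 27.6 to 34.6 TPM in the remaining 3. Of its 8 tested genes, 5 were lower in both spok-high libraries and 0 were higher, against the background of 20.4%. Its storage protein gene Lsp1beta was at 4.34 and 2.91 TPM in the pair against 10.8 to 210 TPM, a margin of 2.21-fold. All 12 muscle genes overlapped: summed, they stood at 496 TPM in set A replicate 1, the lowest of all, and at 1142 TPM in set B replicate 2. Without set B replicate 2, 8 of the 12 were lower, with 30.8% of all genes then lower. All 5 tested neural genes overlapped as well, as most genes did. Summed, the neural list stood at 55.5 TPM in set B replicate 1 and at 27.3 to 31.4 TPM elsewhere. Of 7 midgut genes, 5 stayed under 1 TPM throughout, and the serine proteases Jon65Aiii and Jon65Aiv were higher in the pair by 1.70 and 1.68-fold. Of 7 tested heart and pericardial genes, 5 overlapped, as most genes did, the transcription factor gene Hand among them. tin, a cardiac homeobox gene, was higher at 2.65 and 4.18 TPM against 1.36 to 1.71 TPM, and Ndae1, an anion exchanger, was lower by 1.01-fold.

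Of the blood cell lists, only that of crystal cells was lower in the pair as a whole. All 5 crystal cell genes were lower in both spok-high libraries, against the background of 20.4%. PPO1, a prophenoloxidase, was at 3867, 6440.19, 7052, 5654, 3942 and 5321 TPM, and PPO2, its partner in melanization, at 5730, 9158, 10170, 7949, 5682 and 7177 TPM. The lowest of the other 4 libraries was 1.35-fold above the higher of the pair for PPO1 and 1.25-fold for PPO2. lz, the Runx factor that specifies crystal cells, was at 5.83 and 7.92 TPM against 10.51 to 17.0 TPM (1.29-fold). The factors peb and klu had margins of 1.32 and 1.09-fold. TPM is a share of each library's total, so in bulk tissue it gives neither the number of crystal cells nor their transcripts per cell. The cause of the lower shares was not tested.

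For crystal cells the libraries outside the pair differed as well. Summed over the list, set A replicate 3 was the highest at 17255 TPM and set A replicate 2 followed at 15626 TPM. Set B replicates 1 and 3 were at 13629 and 12520 TPM, and the spok-high libraries at 9610 and 9640 TPM.

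Plasmatocyte genes were split, with 5 of 8 lower in both libraries and 2 higher, against backgrounds of 20.4% and 24.3%. The lower ones were Hml, Pxn, the collagen IV genes Col4a1 and vkg, and Sr-CI. Sr-CI, a scavenger receptor, was at 523, 860, 943, 775, 494 and 708 TPM, a margin of 1.35-fold. Hml, which encodes the clotting protein hemolectin, was at 625 and 700.32 TPM against 791 to 1092 TPM (1.13-fold). Higher in both were crq, a receptor for apoptotic cells, at 134, 50.8, 50.5, 56.4, 99.2 and 50.5 TPM (1.74-fold), and eater, a phagocytic receptor, at 738 and 580 TPM against 421 to 535 TPM (1.08-fold). crq and Pxn overlap an exon on the opposite strand. NimC1, another phagocytic receptor, overlapped.

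Of 5 prohemocyte genes, 1 was higher in both libraries and 1 lower, near the background. Of these genes, Tep4, Ance and dome overlapped. The receptor gene et was lower by 1.09-fold, and shg, which encodes E-cadherin, was at 9.35, 3.52, 2.97, 9.21, 13.6 and 4.38 TPM, a margin of 1.01-fold. He, srp, Pvr and ush, shared by hemocytes, all overlapped, as most genes did, with He between 1808 and 2268 TPM. Of the niche genes, Antp, kn and dlp overlapped and tau was higher by 1.04-fold. The lamellocyte marker atilla overlapped, at 1.12 to 8.20 TPM. Among its broader companions, msn was higher by 1.24-fold and cher lower by 1.15-fold. et, He and cher overlap an exon on the opposite strand.

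The listed cell cycle genes were all lower in the pair. All 6 replication genes were lower in both libraries, against the background of 20.4%. Mcm5, a subunit of the replicative helicase, was at 17.3, 30.8, 31.0, 29.3, 20.5 and 30.3 TPM (1.41-fold), and Mcm2 had a margin of 1.40-fold. PCNA, the sliding clamp, was at 70.9 and 75.6 TPM against 93.1 to 108 TPM (1.23-fold). The ribonucleotide reductase genes RnrL and RnrS had margins of 1.28 and 1.18-fold and the S-phase cyclin gene CycE, which overlaps an exon on the opposite strand, of 1.08-fold.

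All 14 genes of a mitosis list, written after the kinesin Klp67A had been seen, were lower in both libraries, against the background of 20.4%. Klp67A, which overlaps an exon on the opposite strand, was at 7.61, 16.5, 19.4, 17.5, 7.74 and 16.3 TPM, a margin of 1.98-fold. polo, the mitotic kinase, was at 33.0, 64.4, 73.9, 67.3, 37.6 and 70.3 TPM (1.69-fold). CycB, a mitotic cyclin, was at 20.4, 36.3, 41.2, 39.2, 21.3 and 39.7 TPM (1.68-fold), and stg, the Cdc25 phosphatase, at 34.7, 73.3, 92.2, 70.2, 43.6 and 81.2 TPM (1.60-fold). CycA and CycB3 had the narrowest margins, 1.07 and 1.05-fold. Unlike the crystal cell genes, the 4 other libraries stood close together, with summed TPM of 405 to 472 against 251 and 270.06 in the pair.

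**Figure D3:**
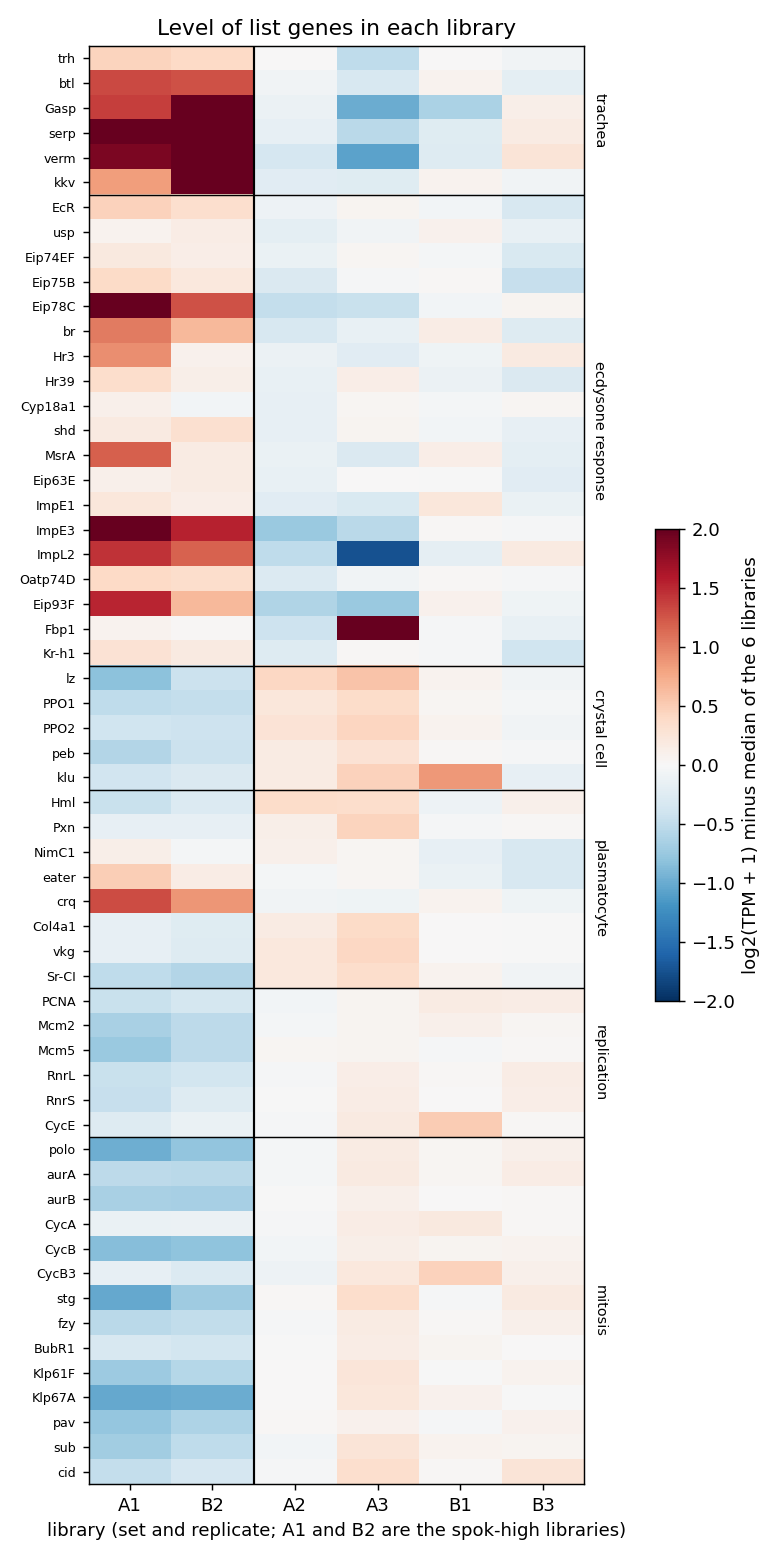
Heat map of log2(TPM + 1) minus the median of the 6 libraries for the tested genes of 6 lists, with libraries in columns, the spok-high libraries A1 and B2 left of the vertical line, and colours limited to -2 to 2. The pair is red for trachea and most ecdysone response genes and blue for crystal cell, replication and mitosis genes, and the plasmatocyte genes crq and eater run against the other plasmatocyte genes.

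Of 6 tested heat shock genes, 2 were higher in both libraries and 1 was lower, near the backgrounds of 24.3% and 20.4%. The 2 were Hsp27 and Hsp23, which are small chaperones, as are Hsp22 and Hsp26. Hsp27 was at 792, 261, 289, 381, 784 and 378 TPM (2.05-fold, with an exon overlap on the opposite strand), and Hsp23 at 2244, 725, 784, 965, 1871 and 1192 TPM (1.57-fold). Hsp22, Hsp26 and Hsp68 overlapped and were highest in set B replicate 3, outside the pair. Hsf was lower by 1.03-fold, and Hsp70Aa was listed at 0. The small chaperones therefore did not move as a group.

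The RNAs roX1 and roX2, which coat the X chromosome in males, were lower in both libraries, against the background of 20.4%. roX1 was at 70.0, 210.35, 342, 139, 76.1 and 132 TPM (1.72-fold, with an exon overlap on the opposite strand), and roX2 at 16.4, 69.9, 87.6, 40.6, 29.6 and 36.4 TPM (1.22-fold). In lists written after values had been seen, msl-2, a male-specific partner of the roX RNAs, was lower at 12.2 and 11.9 TPM against 15.6 to 25.8 TPM. fru and mof were lower as well, dsx was higher at 10.97 and 9.22 TPM against 2.86 to 4.64 TPM, and Sxl, tra and mle overlapped. fit, a gene with female-biased expression in the adult fat body, was at 24.4, 0.28, 0.82, 4.75, 21.5 and 4.21 TPM (3.92-fold). It was the only member of its list that passed the filter. Of the others, Yp1 was listed at 0, Yp2 was at most 0.21 TPM and Yp3 at most 0.30 TPM in any library. dsx, fit and Yp1 overlap an exon on the opposite strand. The share of male larvae in each library was not given, and its part in the other differences was not tested.

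Over all genes, the widest margin upward belonged to Nplp4, which encodes a neuropeptide-like precursor, at 148, 20.2, 0.29, 8.58, 113 and 17.1 TPM (5.36-fold). The next 14 were CG13678, fit, CG13067, serp, CG9782, CG7296, CG3588, CG15919, geko, CG15353, comm2, frm, CG4950 and verm, with margins from 4.60-fold down to 3.08-fold. Set A replicate 3 was the lowest library for 10 of these 15 genes. CG15353 was at 437, 135, 0.67, 69.9, 636 and 105 TPM, and CG15919 at 459, 42.3, 1.52, 35.9, 229 and 66.6 TPM. These genes, fit and CG4950 overlap an exon on the opposite strand. CG4950, in contrast, was abundant in every library, at 170.25, 36.2, 24.3, 37.7, 131 and 40.8 TPM. CG7296 had 53.2 TPM in set A replicate 1 and 10.99 TPM in set B replicate 2, so its 2 high values differed more from each other than the other 4 did among themselves. Further genes past 2-fold, named after their values were seen, included the ecdysone-inducible ABC transporter gene E23 (2.35-fold), the fascin gene sn (2.57-fold), the tubulin gene betaTub60D (2.72-fold) and the Ig-domain gene Ama (2.73-fold).

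Over the 10 genes with at least 2-fold lower levels in the pair summed TPM was 4098 and 4250 in the spok-high libraries and 9714 to 13129 in the others. Nplp2, a neuropeptide-like precursor, was at 2917, 9448, 10041, 7195, 3195 and 9686 TPM (2.25-fold), and CG8157 at 1046, 2635, 2492, 2206, 922 and 2618 TPM (2.11-fold). AOX1, an aldehyde oxidase, had the widest margin, 2.36-fold, at 12.2 and 12.03 TPM against 30.1 to 39.99 TPM. Sr-CIII, a scavenger receptor related to Sr-CI, was at 46.6, 116, 131, 103, 43.0 and 106 TPM (2.19-fold). The others were CG42846, Lsp1beta, CG7120, JhI-26, CG3301 and the acyl-CoA synthetase gene Acsf2. Set B replicate 2 was the lowest library for 6 of the 10 and set A replicate 1 for 4. CG7120, CG8157 and JhI-26 overlap an exon on the opposite strand.

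**Figure D4:**
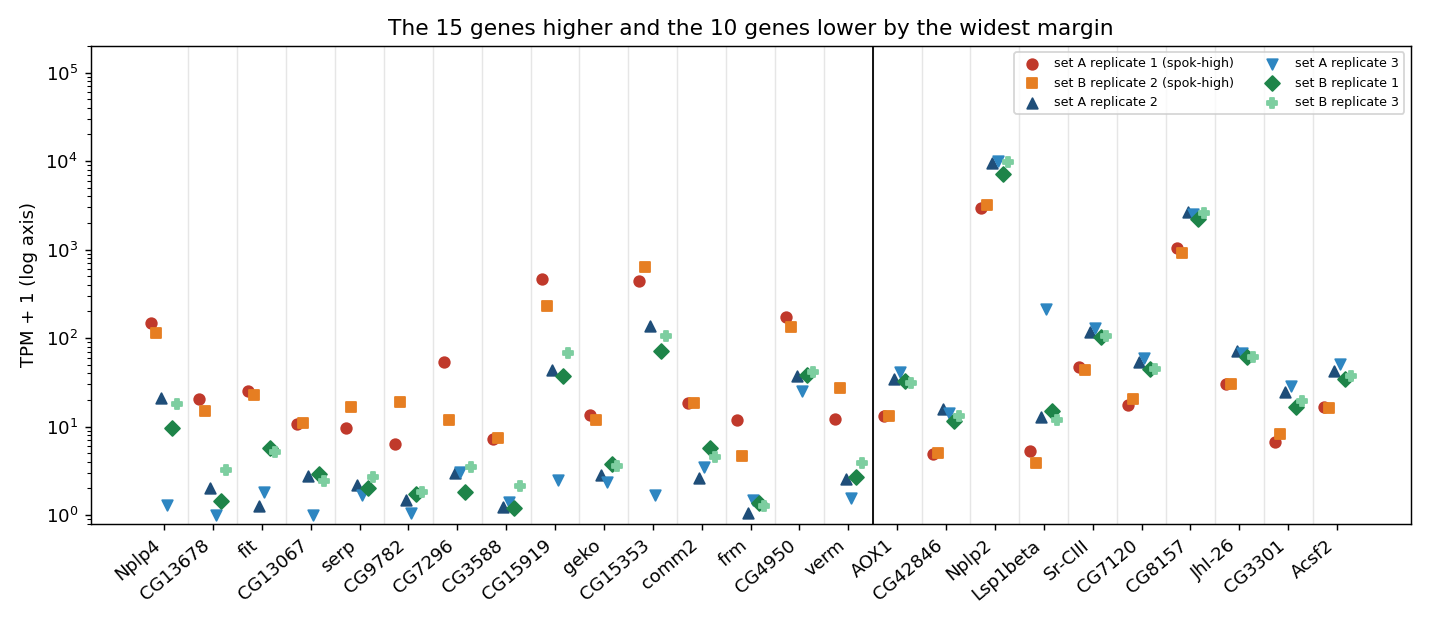
TPM + 1 (log axis) in each library of the 15 genes with the widest margin upward, from Nplp4 at 5.36-fold to verm at 3.08-fold, and right of the vertical line the 10 with the widest margin downward, from AOX1 at 2.36-fold. Many genes of the left block are near 0 in set A replicate 3 (blue downward triangle), and in the right block the red and orange points lie close together.

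Because the pair takes 1 library from each experimenter, the pattern can be set out within each set, from libraries that are not shared. In set A, replicate 1 was at least 2-fold above both other libraries for 318 genes (3.75%). In set B, replicate 2 was so for 191 genes (2.25%). The lists shared 106 genes, which are 33.3% of the first and 55.5% of the second. Another 6 of the set A genes were at least 2-fold lower in set B replicate 2. At least 2-fold lower were 96 genes in set A (1.13%) and 37 in set B (0.436%), with 20 in common, 20.8% and 54.1% of the lists. Since spok chose both libraries, these overlaps are a description.

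Each library's deviation from its set mean was taken in log2 CPM across the 8491 genes, spok included. These deviations were compared over the 9 pairings of a set A with a set B library. The correlation was highest for the spok-high pair, at r = 0.56, and next for set A replicate 3 with set B replicate 3, at 0.37. It was lowest for set A replicate 3 with set B replicate 2, at -0.50. The deviations within a set sum to 0, so the 9 values are not independent, and genes are not replicates. The pair was chosen by spok, so its correlation is a description. Principal components were taken from the same 8491 genes. On the first, with 50.7% of the variance, set B replicate 2 scored -47.7, set A replicate 1 -28.3 and set B replicate 1 -8.60. Set B replicate 3 scored 10.1, set A replicate 2 27.7 and set A replicate 3 46.9. The pair thus lay at one end and set A replicate 3 at the other, and set B replicate 1 stood between the pair and the rest. The second component, with 19.7% of the variance, parted the pair: set A replicate 1 scored -33.2, set B replicate 2 6.12 and set B replicate 1 35.1.

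The size of the pattern differed between sets. Over the 6 synthesis genes, the spok-high library was set against the mean of the other 2 in its set as a log2 ratio of TPM + 1. The median of this ratio reached 1.51 for set A and 0.77 for set B, against 0.03 and 0.01 over all genes. For trachea the order was the opposite, 1.73 in set A and 2.48 in set B. The 14 mitosis genes had medians of -0.75 and -0.62, the 6 replication genes -0.51 and -0.48 and the 5 crystal cell genes -0.80 and -0.43. The muscle list was at -0.39 in set A and 0.05 in set B, and the salivary gland list at 0.17 and 6.70. These differences between sets were not tested.

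**Figure D5:**
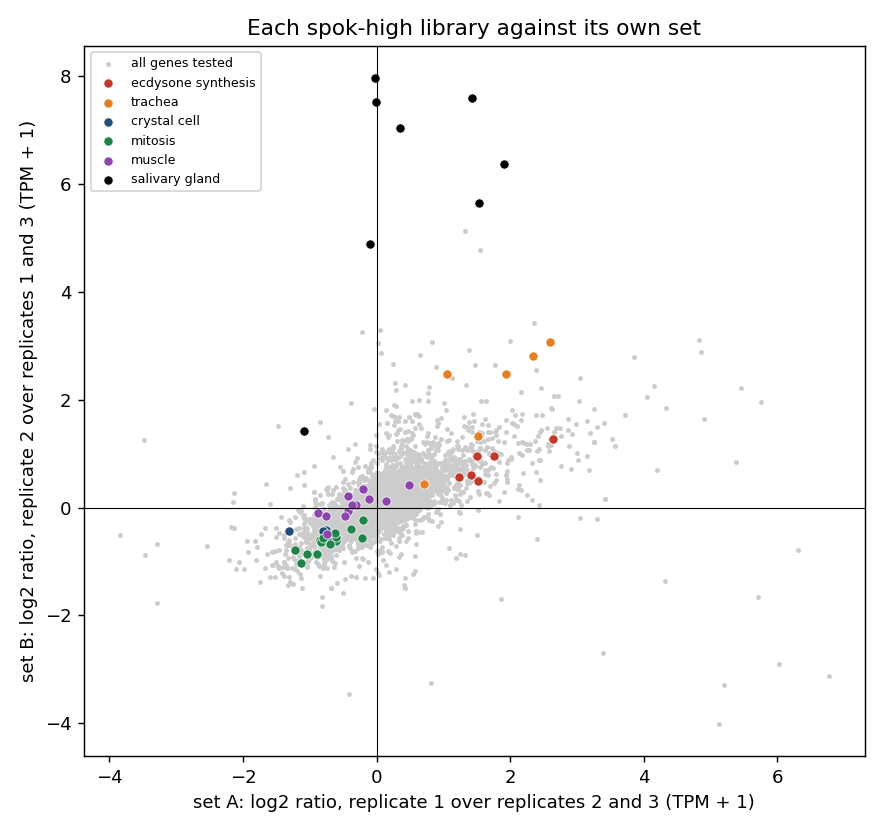
Each point is a gene: the x axis is the log2 ratio of set A replicate 1 to the mean of set A replicates 2 and 3, and the y axis that of set B replicate 2 to the mean of set B replicates 1 and 3, both on TPM + 1. Ecdysone synthesis and trachea genes lie in the upper right and mitosis and crystal cell genes in the lower left, while salivary gland genes are displaced along the y axis only, with medians of 0.17 and 6.70.

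The comparison that the labels do define, set B against set A, is independent of the split. Of 8491 genes, edgeR called 0 (0.0%) at an adjusted p of 0.05 by its quasi-likelihood test, while 353 were below 0.05 before adjustment. Of the 188 list genes tested, 0 were called. For spok the log2 ratio of set B to set A was 0.35 (SE 0.50, n = 3 libraries each), with an edgeR adjusted p of 0.9997. phtm differed by 0.22 (SE 0.42), sad by 0.26 (SE 0.56) and dib by -0.20 (SE 0.85), each with an edgeR adjusted p of 0.9997. When the spok-high libraries entered the fit as a term, the number of genes with an unadjusted p under 0.05 went from 353 to 823 and the smallest edgeR adjusted p from 0.9997 to 0.275, with 0 genes called (0.0%). When both were left out, leaving 2 libraries against 2, those values were 637 and 0.338, again with 0 called. The term and the exclusion both follow a split chosen from these same libraries. The changes in p-values are therefore a description, and no conclusion is drawn from them. DESeq2, another count test, called 34 of 9611 genes between the sets in all 6 libraries.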

How the data were processed

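RNA-seq was carried out on 6 whole lymph gland libraries, each from 200 ng of RNA and a stranded poly(A) kit, per the labels' protocols. The submitters' processing notes name CASAVA 1.8.2, Trimmomatic 0.35, STAR 2.7.1a, RSEM 1.2.28 and the build BDGP6. The annotation release and the use of strand in counting are not given in the sources used here. Per the file headers, the authors gave RSEM's expected counts, which are estimated reads per gene without normalization and need not be whole. The deposited tables also hold TPM, which corrects for effective length and sums to the same total in each library. RSEM's posterior standard deviation of each count, another column of the deposited tables, was used to judge ambiguous assignment.

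Symbols and positions are from Ensembl release 115 (BDGP6.54): of 17807 genes, 17710 matched by ID, 56 by transcript and 41 not at all. The members and gene lists were chosen with earlier results of these data known, and 5 of the 28 lists after values had been seen. The named genes are the synthesis, corpus allatum and corpora cardiaca lists, list members whose libraries did not overlap, and the 15 higher and 10 lower genes with the widest margins. The main test between sets was edgeR 4.0.16 in R 4.3.3 (rounded expected counts, filterByExpr, TMM, glmQLFit, Benjamini-Hochberg, threshold 0.05), tested on simulated data, with DESeq2 1.42.0 as an alternative. Nothing says that the libraries came from separate larvae or cultures, so these p-values measure the spread between the libraries, which may be technical. The split by spok received no test: margins are ratios of TPM + 1 between the nearest libraries of the 2 sides. No paired design was assumed. Total expected counts per library were 18689689 to 26003822. Other computations used Python 3.11.15, numpy 2.4.6 and pandas 2.3.3, and plots used matplotlib 3.10.9.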

Additional observations from a re-analysis of the deposited data

Results flagged for a closer look

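Over the 6 libraries as a single wild-type group, 20 of 165 values (list sums and named genes) had a library whose gap to its nearest neighbour, as a share of the range, was above Dixon's critical value for 6 samples at the 95% level. The chance rate of 1 in 20 holds for normally distributed values. These TPM were untransformed, partly chosen for their separation and not independent, so the count cannot be set against that rate.

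Set B replicate 2 stood apart for the salivary gland sum at 6665 TPM (gap 0.989), for Sgs8 at 719 TPM (0.981) and for CG9782 at 18.0 TPM (0.704). It also did so for the chitin and apical matrix genes kkv at 5.92 TPM (0.804), knk at 4.69 TPM (0.818), obst-B at 7.37 TPM (0.843), pio at 10.6 TPM (0.817) and dpy at 1.42 TPM (0.709). Sgs8 and these genes count as higher in the pair, although most of the separation is in this library: kkv was at 1.2 TPM in set A replicate 1 and at most 0.30 TPM in the other 4.

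Set A replicate 1 stood apart for the larval cuticle sum at 3417 TPM (0.937), for MsrA at 72.4 TPM (0.798), for Hr4 at 1.72 TPM (0.849), for CG7296 at 53.2 TPM (0.806) and for frm at 10.9 TPM (0.667).

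Set A replicate 3 stood apart for the fat body sum at 742 TPM (0.971), with Lsp1alpha at 93.6 TPM (0.982), Lsp1beta at 210 TPM (0.946), Lsp1gamma at 196 TPM (0.99) and Fbp2 at 34.4 TPM (0.937), and for the lamellocyte sum at 285 TPM (0.656). Set B replicate 1 stood apart for the neural and glial sum at 55.5 TPM (0.855).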

How the results depend on the processing

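The same pair was the highest for spok under CPM with TMM factors. It was so with nvd, sro, phtm, dib or sad in place of spok, which restates that these genes did not overlap. Under CPM all 128 named genes that did not overlap in TPM still did not overlap. Pseudocounts and left-out libraries cannot end such a separation, so they say nothing of its stability. The 80 genes at least 2-fold higher became 127 with a pseudocount of 0.1 and 38 with one of 5, and the 10 at least 2-fold lower became 27 and 4. Leaving out each library gave 81 to 186 genes (higher) and 10 to 47 (lower), with the largest counts without set A replicate 1 (186 and 32), set B replicate 2 (183 and 47) and set B replicate 1 (123 and 30). Without set B replicate 3, 18 genes were at least 2-fold lower. For genes lower by any margin, 1729 became 1823 to 2619, the latter without set B replicate 2. Between sets, edgeR called 0 genes without the filter, with replicate number as a block (0 calls, smallest edgeR adjusted p 0.889), and without each library (0 to 0), whereas DESeq2 without the edgeR filter called 34 of 9611. Same-numbered libraries of the 2 sets correlated at -0.17, -0.28 and 0.37. These values are not independent, so they cannot decide whether a replicate number marks a shared source, and no pairing was assumed. The causes were not tested.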

Other observations

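The spok-high libraries differed from each other in genes of the larval body surface. The 5 larval cuticle protein genes that passed the filter, of 10 listed after their values were seen, were highest in set A replicate 1 and near 0 in set B replicate 2. Lcp1 was at 1531, 2.15, 60.8, 46.9, 1.64 and 10.1 TPM in set A replicates 1 to 3 and set B replicates 1 to 3. Lcp4 was at 822, 5.77, 72.4, 32.3, 0.69 and 7.26 TPM, and Lcp2 at 316, 0.45, 15.3, 23.5, 0.33 and 2.99 TPM. Lcp65Ac, also a larval cuticle gene, was instead at 65.2 TPM in set B replicate 2, 21.6 TPM in set B replicate 3 and at most 0.53 TPM elsewhere. For Lcp65Ab1, at 487 TPM in set A replicate 1, the posterior SD reached 50% of the count in a library with few reads.

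Set B replicate 2, the library with the salivary glue genes, was also the highest for 4 of the 8 genes on the imaginal disc list (so, eya, ey and dac). Another 3 (vg, nub and Dll) were highest in set B replicate 1, and ct was highest in set A replicate 3. eya, a transcriptional coactivator, was at 8.78 TPM there, 1.92 TPM in set B replicate 1 and at most 0.10 TPM elsewhere, and dac at 7.41, 2.34 and at most 0.04 TPM. The niche list gene hh, named after its values were seen, was at 1.92 TPM in set B replicate 2 and at most 0.08 TPM elsewhere. In set A replicate 1 eya, dac and hh stayed at or below 0.10 TPM.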
